A study of Homo sapiens with 6 samples.

Results

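The genes described here encode the parts of desmosomes, tight junctions and gap junctions, with EPCAM and the catenins and P-cadherin that work beside them. They were chosen by gene name and function, with earlier results of these data known, so the list is not blind to the measured values. The members number 31 of the 26475 genes in the table over all libraries. The set holds 10 desmosome genes, 7 claudins, 8 other tight junction genes, the connexin GJB2, EPCAM, 3 catenins and CDH3. Of these, 29 had at least 1 TPM, a level corrected for transcript length and library size, in at least 2 libraries and were tested among 14627 such genes. DSC3 and CLDN6 were below that level.

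Messenger RNA was sequenced from 3 human lung cancer cell lines, PC9-AMG, PC9-BrM4 and PC9, with 2 libraries per line. PC9 is an established lung adenocarcinoma line that carries an activating EGFR mutation, and PC9-BrM4 is known as a derivative selected for growth in the brain. The labels do not say how PC9-AMG was obtained, nor whether either derivative is a clone or a mixed population. All 6 libraries are labelled as cultured in MGS, and their descriptions all carry the word mix. The labels spell out neither, nor whether the RNA holds that of other cells besides the named line, and no group lacks either label, so their effect cannot be read here. Nothing in the labels tells if both libraries of a line come from separate cultures, so p-values measure only the spread between these libraries. The libraries are of bulk RNA, in which fewer cells of a type and less RNA per cell cannot be told apart.

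Epithelial cells are held together by several kinds of junction. In a desmosome, cadherins of the desmoglein and desmocollin families bind the neighbouring cell, and plakoglobin, plakophilins and desmoplakin tie them to keratin filaments. In a tight junction, claudins form the strands that seal the space between cells and set which ions pass, while occludin and its relatives sit in the same strands and the ZO proteins and cingulin link them to actin. Gap junction channels, built of connexins, pass small molecules between cells. In lung epithelium these structures form the barrier that lines the airways, and tumour cells of epithelial origin often keep them.

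The 6 libraries each had between 13848 and 14171 genes at 1 TPM or more, and their deposited read coverage at 1 TPM lay between 0.606 and 0.822. Read counts were not used, so the counting error of a single value is unknown. The epithelial markers KRT8, KRT18, KRT19, KRT7, CDH1, ESRP1 and ESRP2 were all present, and their summed level lay between 12681 and 13272 TPM in PC9-AMG, between 10658 and 11132 TPM in PC9-BrM4 and between 14680 and 14947 TPM in PC9. Limma called KRT18, KRT19 and KRT7 lower in PC9-BrM4 than in PC9 (differences -0.61, -0.47 and -0.63, adjusted p up to 0.00117). ESRP2 was higher there (difference 0.52, adjusted p = 0.0439, or 0.0551 with median centring), and KRT8, CDH1 and ESRP1 were not called. In PC9-AMG, KRT19 and KRT7 were lower than in PC9 (differences -0.36 and -0.3, adjusted p = 0.0136 and 0.0338, or 0.202 and 0.272 with median centring). Of the 4 lung adenocarcinoma markers, SFTPB was listed at 0 in every library, NKX2-1 stayed under 1 TPM and NAPSA reached at most 1.69 TPM. The fourth, the mucin MUC1, averaged 95.6 TPM in PC9-AMG, 94.3 TPM in PC9-BrM4 and 145 TPM in PC9, and was lower than in PC9 by limma in PC9-AMG (difference -0.61, adjusted p = 0.0492; 0.0615 with median centring) and in PC9-BrM4 (difference -0.61, adjusted p = 0.0295). The 5 squamous markers summed to between 82.4 and 87.2 TPM in PC9-AMG, to between 198 and 229 TPM in PC9-BrM4 and to between 83.2 and 92.8 TPM in PC9. The higher sum in PC9-BrM4 was mostly KRT5, which read 21.6 and 19.6 TPM in PC9-AMG, 148 and 127 TPM in PC9-BrM4 and 17.5 and 16.2 TPM in PC9. KRT6A lay between 59.99 and 77.7 TPM and was not called, KRT14 reached at most 3.46 TPM and SOX2 at most 0.219 TPM. TP63 averaged 2.38 TPM in PC9-AMG, 0.406 TPM in PC9-BrM4 and 0.894 TPM in PC9, and was higher in PC9-AMG than in PC9-BrM4 (difference 1.26, adjusted p = 0.00852).

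Most markers of other cell types stayed under 1 TPM in every library of each line, but in 4 of the lists a member was present in all 3 lines. Of 8 astrocyte markers 6 stayed under 1 TPM, GFAP, S100B and GJB6 at 0, while ALDH1L1 averaged 31.2 TPM in PC9-AMG, 19.1 TPM in PC9-BrM4 and 22.5 TPM in PC9 and was higher in PC9-AMG than in PC9-BrM4 (difference 0.68, adjusted p = 0.00570). SLC1A3 read 0.652 and 0.361 TPM in PC9-AMG, 3.44 and 2.12 TPM in PC9-BrM4 and 0 in both PC9 libraries, and reached 1 TPM in PC9-BrM4 alone. Of 6 oligodendrocyte markers 5 stayed under 1 TPM, MOG and OLIG2 at 0, and MBP lay between 20.2 and 26.8 TPM. Of 6 microglia markers 4 were at 0, and CSF1R lay between 6.81 and 9.96 TPM. Of 6 fibroblast markers 5 stayed under 1 TPM, and COL1A1 lay between 8.92 and 17.1 TPM. Of 5 endothelial markers CLDN5 was at 0, and CDH5 reached 1.33 TPM in a PC9 library and no other passed 1 TPM. The part of these markers in the results below was not tested. Between the 2 PC9-BrM4 libraries the gap followed transcript length across 13713 genes (Spearman's rho 0.468, a description across genes), against 0.0591 in PC9-AMG and 0.0353 in PC9.

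The junction genes differed widely in level. CLDN4, a claudin of many simple epithelia, was the highest member at a mean of 1132 TPM over the 6 libraries, above 99.2% of the genes tested. EPCAM, an adhesion protein of epithelial cells that binds claudin-7, averaged 747 TPM, and CLDN7 averaged 702 TPM. The fourth was JUP at 260 TPM. In all, 11 members averaged at least 100 TPM, 14 lay between 10 and 100 TPM, 3 lay between 1 and 10 TPM and 3 were under 1 TPM. The low end held DSG3, CLDN6 and DSC3, the desmocollin of stratified epithelia, which was listed at 0 in every library. CLDN6, a claudin of embryonic epithelia, read 0.135 and 0 TPM in PC9-AMG, 0.739 and 0.365 TPM in PC9-BrM4, and 0 and 0.326 TPM in PC9.

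**Figure D1:**
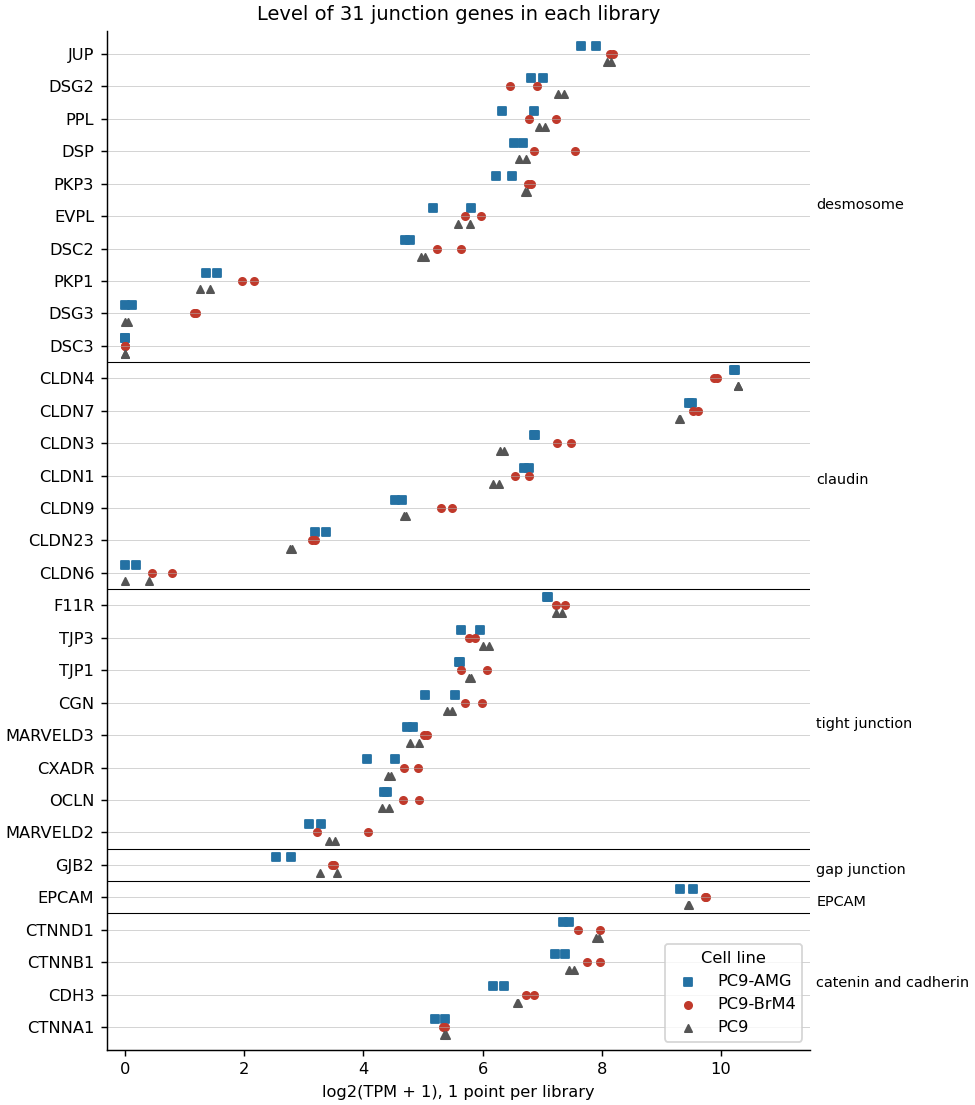
Level of each of the 31 junction genes in each library, as log2(TPM + 1), grouped by family, with 1 point per library of PC9-AMG, PC9-BrM4 and PC9. CLDN4, EPCAM and CLDN7 stand at the top of the scale and DSC3 at 0.

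Set against PC9, PC9-BrM4 had higher levels of CLDN3, CLDN9, CLDN1, CLDN7, PKP1 and CTNNB1 and lower levels of CLDN4 and DSG2. With DSG3 these are 7 higher and 2 lower of 29 members tested, where 16.3% of all genes passed the same test (9.89% higher and 6.45% lower). DSG3 reached 1 TPM in PC9-BrM4 alone, so its call was fixed by the filter. Without it 6 of 28 members were higher and 2 lower, or 28.6%, where 15.8% were called of the 14403 genes that reached 1 TPM in more than 1 line. The median difference of the members was 0.21 on the log2 scale, and that of all genes tested was 0.09. A gene was counted when limma's Benjamini-Hochberg adjusted p over all genes tested was under 0.05. With each library centred on its median gene, 3 members were higher and 2 lower, or 17.2%, where 15.1% of all genes were called. Of all genes 917 were then higher and 1293 lower, in place of 1446 and 943. The count of 9 dropped to 5 when PC9-BrM4 library 1 was left out, to 1 when PC9 library 1 was, and to 3 when PC9 library 2 was. The count over all genes was then 1195, 927 and 892, in place of 2389.

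Set against PC9, PC9-AMG had higher CLDN3 and CLDN1 and lower GJB2 and CTNND1. The 4 called members make 13.8% of those tested, where 7.49% of all genes were called (3.67% higher and 3.82% lower), and the median difference was -0.17 for members and -0.05 for all genes. With median centring CLDN23 joined the higher genes, which gave 3 higher and 2 lower members. That is 17.2% of those tested, where 7.66% of all genes were called. Of all genes 685 were then higher and 436 lower, in place of 537 and 559. Without PC9-AMG library 2, PC9 library 1 or PC9 library 2, limma called 0 members (8, 6 and 5 had an unadjusted p under 0.05), and without PC9-AMG library 1 it called 2. Of all genes it then called 152, 160, 131 and 369, in place of 1096. Both derivatives are set against the same PC9 libraries, so their differences from PC9 share the error of those libraries.

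Between the derivatives, PC9-AMG had higher CLDN4 and lower levels of 12 junction genes than PC9-BrM4, beside DSG3. The 12 are DSP, DSC2, JUP and PKP3 of the desmosome, CLDN3 and CLDN9, CGN, GJB2, EPCAM, CTNNB1, CTNND1 and CDH3. With DSG3, whose call was again fixed by the filter, the 14 called members make 48.3% of those tested, where 18.6% of all genes were called (6.31% higher and 12.3% lower). Without DSG3 they make 46.4%, where 18.3% were called of the genes that reached 1 TPM in more than 1 line. The median difference was -0.40 for members, and that of all genes was itself below 0, at -0.13. With median centring 1 member was higher and 5 were lower, namely DSC2, CLDN9, GJB2, CTNNB1 and CDH3. Higher and lower together made 20.7% of those tested, where 17.1% of all genes were called. Of all genes 1606 were then higher and 900 lower, in place of 923 and 1797. The count of 14 was 9 without PC9-AMG library 1, 7 without PC9-AMG library 2, 3 without PC9-BrM4 library 1 and 9 without either PC9 library. The count over all genes, 2720, was then 1782, 1423 and 1024, and 1935 and 1945 without PC9 library 1 and 2.

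**Figure D2:**
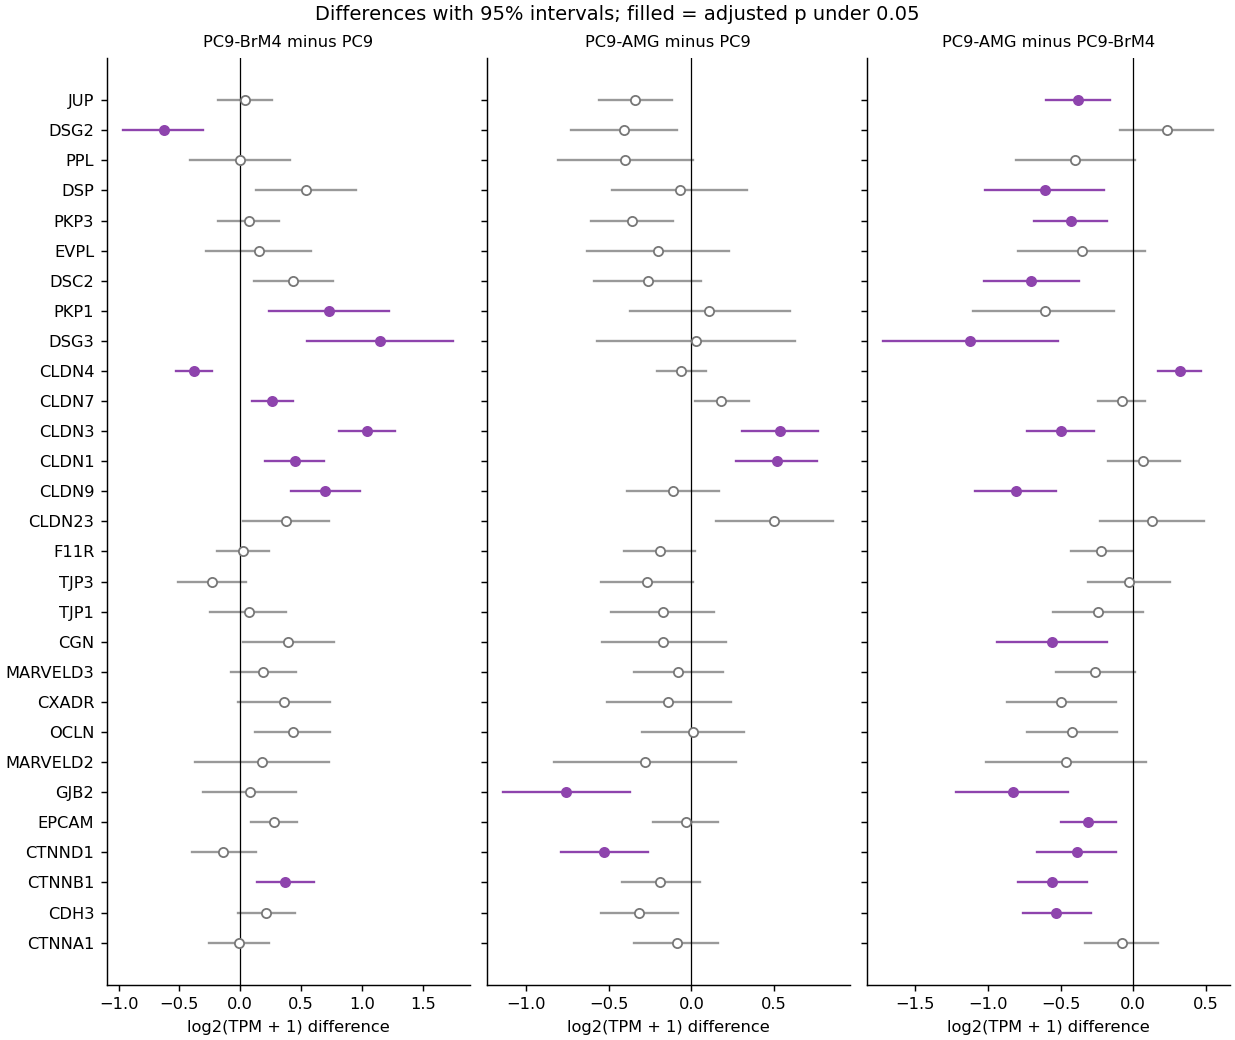
Difference of each tested junction gene in log2(TPM + 1) in 3 panels, for PC9-BrM4 over PC9, PC9-AMG over PC9 and PC9-AMG over PC9-BrM4, with 95% intervals from limma over 2 libraries per line. Filled points have an adjusted p under 0.05, and most members lie below 0 in the comparison of PC9-AMG with PC9-BrM4.

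The claudins held the most called members in PC9-BrM4 against PC9, with 5 of the 6 tested, where 16.3% of all genes were called. With median centring limma kept CLDN3, CLDN4 and CLDN9, and not CLDN1 (adjusted p = 0.0606) or CLDN7 (adjusted p = 0.409). CLDN3, a sealing claudin, read 117 and 115 TPM in PC9-AMG, 152 and 178 TPM in PC9-BrM4 and 77.4 and 81.5 TPM in PC9. No library of a line overlapped with those of another, and CLDN3 was the only member called in all 3 comparisons. It was higher in PC9-BrM4 than in PC9 by 1.04 ± 0.10 (log2 difference ± SE, adjusted p = 0.000182), and this call held without each library in turn and under every other processing tried. CLDN3 was higher in PC9-AMG than in PC9 by 0.54 ± 0.10 (adjusted p = 0.0170), a call lost without either PC9-AMG library (adjusted p = 0.0680 and 0.0788) or either PC9 library (0.167 and 0.109). Against PC9-BrM4 it was lower in PC9-AMG (difference -0.50 ± 0.10, adjusted p = 0.00992), or -0.33 with median centring (adjusted p = 0.125), and the call was also lost without PC9-AMG library 2 (adjusted p = 0.0514).

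CLDN4 moved the other way in PC9-BrM4. It read 1193 and 1198 TPM in PC9-AMG, 939 and 975 TPM in PC9-BrM4 and 1247 and 1241 TPM in PC9, with no overlap between lines. The difference from PC9 was -0.38 ± 0.07 in PC9-BrM4 (adjusted p = 0.00504) and -0.06 in PC9-AMG (95% interval -0.21 to 0.09), and PC9-AMG stood above PC9-BrM4 by 0.32 ± 0.07 (adjusted p = 0.0105). The PC9-BrM4 call was lost without PC9 library 1 (adjusted p = 0.0870) or PC9 library 2 (adjusted p = 0.0814). CLDN3 and CLDN4 lie near each other on chromosome 7, CLDN3 at chr7:73768997-73770270 on the minus strand and CLDN4 at chr7:73830863-73832693 on the plus strand (hg38). Around them, the 49 nearest tested genes had a median difference of -0.12 between PC9-BrM4 and PC9.

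The genes are thus neighbours that were called in opposite directions in PC9-BrM4. Start regions are printed for CLDN3, CLDN4, CLDN7 and CLDN1, the claudin members with the highest mean in any line among those with a listed start. Each runs 5′ to 3′ from 250 bases before to 50 bases after the RefSeq start (GRCh38.p14): CLDN3 chr7:73770221-73770520 on the minus strand, CLDN4 chr7:73830746-73831045 on the plus strand, CLDN7 chr17:7263164-7263463 and CLDN1 chr3:190322397-190322696, both on the minus strand. Capitals mark the E-box CAGGTG or its complement CACCTG, the letters that SNAI and ZEB repressors bind, and the AP-2 motif GCCNNNGGC, which reads the same on both strands.
CLDN3: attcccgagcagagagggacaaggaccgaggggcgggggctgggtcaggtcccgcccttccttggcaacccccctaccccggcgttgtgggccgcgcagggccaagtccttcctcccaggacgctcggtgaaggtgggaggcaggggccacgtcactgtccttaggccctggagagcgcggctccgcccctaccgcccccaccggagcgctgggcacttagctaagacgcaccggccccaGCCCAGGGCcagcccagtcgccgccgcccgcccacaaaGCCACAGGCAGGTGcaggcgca
CLDN4: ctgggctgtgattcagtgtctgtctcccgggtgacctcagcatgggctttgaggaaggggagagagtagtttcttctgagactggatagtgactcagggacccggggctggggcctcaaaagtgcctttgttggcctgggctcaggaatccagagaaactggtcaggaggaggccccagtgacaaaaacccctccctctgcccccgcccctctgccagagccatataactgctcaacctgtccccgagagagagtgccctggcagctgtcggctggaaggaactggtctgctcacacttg
CLDN7: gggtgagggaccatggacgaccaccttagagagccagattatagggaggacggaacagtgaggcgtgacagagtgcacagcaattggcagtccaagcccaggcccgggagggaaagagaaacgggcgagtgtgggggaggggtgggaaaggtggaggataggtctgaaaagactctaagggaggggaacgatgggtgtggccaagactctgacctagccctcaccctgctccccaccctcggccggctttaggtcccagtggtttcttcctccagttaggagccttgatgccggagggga
CLDN1: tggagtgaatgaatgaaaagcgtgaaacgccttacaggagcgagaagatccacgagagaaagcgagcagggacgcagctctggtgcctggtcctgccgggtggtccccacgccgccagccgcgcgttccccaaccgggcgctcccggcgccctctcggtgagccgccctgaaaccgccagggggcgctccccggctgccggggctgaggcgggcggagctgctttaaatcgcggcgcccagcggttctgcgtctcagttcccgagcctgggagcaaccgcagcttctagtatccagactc
Counted with the start as +1, the CLDN3 window held AP-2 matches that begin at -10 and +29 and an E-box that begins at +37 and shares a base with the nearer AP-2 match. The CLDN4 and CLDN1 windows and the CLDN7 window shown held neither motif, and a further CLDN7 start listed by RefSeq held 5 E-boxes. Among all 34943 promoters of this length, 20.6% held the E-box and 23.2% the AP-2 motif. Of the 31 promoters listed for members, 12 held the E-box and 11 the AP-2 motif; they belong to 20 member genes, several of which have more than 1 listed start, and a match describes letters only.

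CLDN9 was higher in PC9-BrM4 than in both other lines. It read 24.1 and 22.0 TPM in PC9-AMG, 38.5 and 44.1 TPM in PC9-BrM4 and 24.6 and 25.4 TPM in PC9. PC9-BrM4 stood apart from both other lines, by 0.70 ± 0.12 against PC9 (adjusted p = 0.00513). PC9-AMG was lower than PC9-BrM4 (difference -0.81 ± 0.12, adjusted p = 0.00232), and that call alone among the 14 of its comparison held without each library in turn and under every other processing tried. The call against PC9 was lost without PC9 library 1 (adjusted p = 0.0591). CLDN9 lies at chr16:3012456-3014505, and the 50 genes around it had medians of 0.19 for PC9-BrM4 over PC9 and -0.31 for PC9-AMG over PC9-BrM4.

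CLDN1, a claudin needed for the skin barrier, was higher in both derivatives. It read 102 and 109 TPM in PC9-AMG, 109 and 92.7 TPM in PC9-BrM4 and 76.5 and 70.9 TPM in PC9, so the derivatives overlapped each other and not PC9. The differences from PC9 were 0.52 ± 0.11 in PC9-AMG (adjusted p = 0.0251) and 0.45 ± 0.11 in PC9-BrM4 (adjusted p = 0.0232). Without single libraries, the PC9-AMG call was lost 4 times (adjusted p = 0.0676 and 0.113 without PC9-AMG library 1 and 2, and 0.131 and 0.222 without PC9 library 1 and 2). The PC9-BrM4 call was lost without PC9-BrM4 library 1 (adjusted p = 0.113), PC9 library 1 (0.101) or PC9 library 2 (0.207). Between PC9-AMG and PC9-BrM4 the difference was 0.07 (95% interval -0.17 to 0.32).

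CLDN7, which pairs with EPCAM at the lateral membrane, had the smallest called rise. It read 706 and 729 TPM in PC9-AMG, 735 and 781 TPM in PC9-BrM4 and 636 and 627 TPM in PC9. The lines did not overlap, and PC9-BrM4 stood above PC9 by 0.26 ± 0.07 (adjusted p = 0.0369). This call was lost with median centring (difference 0.16, adjusted p = 0.409) and without PC9 library 1 (0.251), PC9 library 2 (0.298) or PC9-BrM4 library 2 (0.0902). CLDN23 read 9.42 and 8.15 TPM in PC9-AMG, 8.11 and 7.76 TPM in PC9-BrM4 and 5.97 and 5.81 TPM in PC9. It was not called in any comparison, with a 95% interval of 0.15 to 0.86 for PC9-AMG against PC9 and an adjusted p of 0.0392 there under median centring.

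The make-up of the claudin RNA is given as a description, over all 24 claudin genes. Their sum was 2211 and 2251 TPM in PC9-AMG, 2037 and 2127 TPM in PC9-BrM4 and 2156 and 2134 TPM in PC9. CLDN4 made up 54.0% and 53.2% of it in PC9-AMG, 46.1% and 45.8% in PC9-BrM4 and 57.8% and 58.1% in PC9. CLDN3 made up 5.28% and 5.12% in PC9-AMG, 7.44% and 8.36% in PC9-BrM4 and 3.59% and 3.82% in PC9. The ratio of CLDN4 to CLDN3 in TPM was thus 10.2 and 10.4 in PC9-AMG, 6.20 and 5.48 in PC9-BrM4 and 16.1 and 15.2 in PC9, a quantity that scaling of a library leaves as it is. A list of 17 further genes outside the set held claudins and the claudin domain genes CLDND1 and CLDND2, which are not among the 24. Of these 17, 5 were tested, CLDND1 and CLDND2 among them, and CLDN12 was the only 1 called. It read 44.4 and 57.5 TPM in PC9-AMG, 42.7 and 34.6 TPM in PC9-BrM4 and 74.8 and 70.0 TPM in PC9, a difference of -0.90 ± 0.15 for PC9-BrM4 against PC9 (adjusted p = 0.00341).

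**Figure D3:**
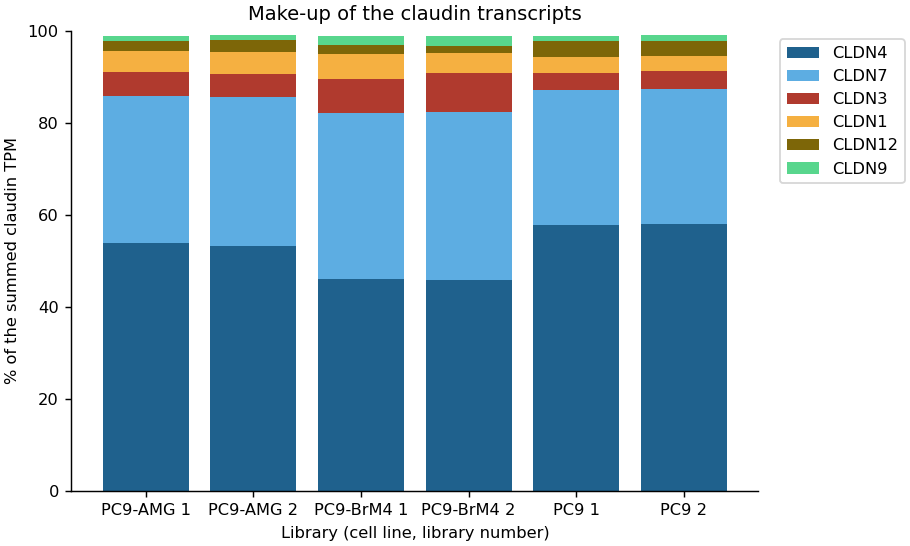
Share of the summed claudin TPM taken by each abundant claudin, in percent, 1 bar per library of PC9-AMG, PC9-BrM4 and PC9. The CLDN4 share is lowest and the CLDN3 share highest in the 2 PC9-BrM4 libraries.

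Among the desmosomal cadherins, DSG2 was lower in PC9-BrM4 than in PC9, and DSC2 was lower in PC9-AMG than in PC9-BrM4. DSG2, the desmoglein of simple epithelia, read 111 and 128 TPM in PC9-AMG, 119 and 86.8 TPM in PC9-BrM4 and 165 and 153 TPM in PC9. Both derivatives lay wholly below PC9, and the difference was -0.63 ± 0.14 in PC9-BrM4 (adjusted p = 0.0157) and -0.41 in PC9-AMG (95% interval -0.73 to -0.09, adjusted p = 0.113). The PC9-BrM4 call was lost without PC9 library 1 (adjusted p = 0.0965) or PC9-BrM4 library 2 (adjusted p = 0.0754). DSC2, the desmocollin of the same epithelia, read 24.9 and 26.5 TPM in PC9-AMG, 49.0 and 36.5 TPM in PC9-BrM4 and 31.8 and 30.4 TPM in PC9. No lines overlapped, and PC9-AMG was lower than PC9-BrM4 (difference -0.70 ± 0.15, adjusted p = 0.0105; -0.53 with median centring, adjusted p = 0.0212). That call was lost without PC9-AMG library 1 (adjusted p = 0.0645), PC9-AMG library 2 (0.0536) or PC9-BrM4 library 1 (0.0649). For PC9-BrM4 against PC9, DSC2 had an interval of 0.11 to 0.76 (adjusted p = 0.0738).

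The ratio of DSG2 to DSC2 in TPM was 4.46 and 4.83 in PC9-AMG, 2.43 and 2.38 in PC9-BrM4 and 5.18 and 5.03 in PC9. Both genes lie on chromosome 18, where the 48 genes around each had median differences of 0.02 and 0.00 between PC9-BrM4 and PC9. DSG3, the desmoglein of stratified epithelia and a main target of pemphigus antibodies, read 0 and 0.0827 TPM in PC9-AMG, 1.23 and 1.29 TPM in PC9-BrM4 and 0.0412 and 0 TPM in PC9. It passed the filter on low values only through PC9-BrM4, so a difference there was fixed by the choice, and at these levels a fold has little meaning. Its calls in PC9-BrM4 against PC9 (adjusted p = 0.0187) and PC9-AMG against PC9-BrM4 (adjusted p = 0.0194) were each lost whichever of the 4 libraries compared was left out, with adjusted p between 0.0536 and 0.0966.

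Of the 6 plaque genes, which tie the cadherins to keratin, DSP, JUP and PKP3 were lower in PC9-AMG than in PC9-BrM4. DSP, desmoplakin, read 101 and 90.8 TPM in PC9-AMG, 186 and 116 TPM in PC9-BrM4 and 96.5 and 105 TPM in PC9. The PC9-BrM4 libraries lay above the others but far from each other, and their gap of 0.68 on the log2 scale was larger than the difference of PC9-BrM4 from PC9 (0.54, 95% interval 0.13 to 0.95, adjusted p = 0.0731). PC9-AMG was lower than PC9-BrM4 (difference -0.61 ± 0.18, adjusted p = 0.0441), a call lost with median centring (-0.44, adjusted p = 0.0941), with the length trend removed (-0.35, adjusted p = 0.0753), and without PC9-AMG library 1 (0.119), PC9-AMG library 2 (0.213) or PC9-BrM4 library 1 (0.212). Against PC9, the DSP difference of PC9-BrM4 was 0.88 without PC9-BrM4 library 2 (adjusted p = 0.0105) and 0.20 without PC9-BrM4 library 1 (adjusted p = 0.322).

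JUP, plakoglobin, read 238 and 200 TPM in PC9-AMG, 291 and 279 TPM in PC9-BrM4 and 271 and 283 TPM in PC9. PKP3, a plakophilin of most epithelia, read 89.6 and 73.4 TPM in PC9-AMG, 108 and 111 TPM in PC9-BrM4 and 103 and 106 TPM in PC9. Both were lowest in PC9-AMG, without overlap with either other line. Against PC9-BrM4 the differences were -0.38 ± 0.10 for JUP (adjusted p = 0.0251) and -0.43 ± 0.11 for PKP3 (adjusted p = 0.0264). Each fell short with median centring, at -0.21 (adjusted p = 0.213) and -0.26 (adjusted p = 0.169). Both also fell short with the length trend removed, at -0.25 (adjusted p = 0.0774) and -0.32 (adjusted p = 0.0549). Each was lost whichever library was left out, other than PC9-AMG library 1, with adjusted p between 0.0546 and 0.138 for JUP and between 0.0570 and 0.108 for PKP3. Against PC9, PC9-AMG differed by -0.34 for JUP (95% interval -0.56 to -0.12, adjusted p = 0.0623) and -0.36 for PKP3 (95% interval -0.61 to -0.11, adjusted p = 0.0776).

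PKP1, the plakophilin of stratified epithelia, stayed low, at 1.91 and 1.58 TPM in PC9-AMG, 3.50 and 2.92 TPM in PC9-BrM4 and 1.38 and 1.69 TPM in PC9. PC9-BrM4 lay above PC9 by 0.73 ± 0.22 (adjusted p = 0.0483), and leaving out any library of the 6 ended the call (adjusted p between 0.0590 and 0.259). PPL and EVPL, the plakins periplakin and envoplakin, were not called in any comparison. PPL read 116 and 79.5 TPM in PC9-AMG, 149 and 108 TPM in PC9-BrM4 and 123 and 131 TPM in PC9, and EVPL lay between 34.9 and 61.9 TPM over the 6 libraries. Their libraries within a line were far apart, by 0.65 on the log2 scale for EVPL in PC9-AMG.

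Of the 8 desmosome genes that reached 1 TPM in more than 1 line, 1 was higher and 1 lower in PC9-BrM4 than in PC9, where 15.8% of all such genes were called. In PC9-AMG against PC9-BrM4 4 of the 8 were lower, or 50.0%, where 18.3% of all such genes were called. DSG3 is not among the 8. In PC9-AMG against PC9, limma called 0 of the 9 tested, DSG3 included, and 3 had an unadjusted p under 0.05. Of 9 desmosome-linked genes outside the set 5 were tested, and CDSN, corneodesmosin of the skin's outer layer, read 1.59 and 1.22 TPM in PC9-AMG, 9.18 and 9.48 TPM in PC9-BrM4 and 1.69 and 1.11 TPM in PC9. It was higher in PC9-BrM4 than in PC9 by 2.12 ± 0.21 (adjusted p = 0.000192). PERP, a p53-responsive tetraspan protein of desmosomes, was lower in PC9-AMG than in PC9-BrM4 (difference -0.42, adjusted p = 0.0182), a call lost without PC9-AMG library 1 or PC9-BrM4 library 1 and with median centring (adjusted p up to 0.188).

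Of the 8 other tight junction genes, 7 passed no test. OCLN, TJP1, TJP3, F11R, MARVELD2, MARVELD3 and CXADR were not called in any comparison, and CGN, cingulin, was called once. CGN read 45.5 and 31.7 TPM in PC9-AMG, 62.5 and 51.1 TPM in PC9-BrM4 and 41.5 and 44.1 TPM in PC9. PC9-AMG was lower than PC9-BrM4 (difference -0.56 ± 0.17, adjusted p = 0.0451), which was lost with median centring (-0.39, adjusted p = 0.108), with the length trend removed (-0.36, adjusted p = 0.111), and whichever library was left out, other than PC9-AMG library 1 (adjusted p between 0.0578 and 0.277). In each of the comparisons with PC9, limma called 0 of the 8, with 2 at an unadjusted p under 0.05 in PC9-BrM4 and 0 in PC9-AMG.

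OCLN, occludin, read 19.3 and 20.2 TPM in PC9-AMG, 29.6 and 24.3 TPM in PC9-BrM4 and 20.5 and 18.8 TPM in PC9. PC9-BrM4 lay above both other lines without overlap, with intervals of 0.12 to 0.74 against PC9 (adjusted p = 0.0607) and of -0.73 to -0.11 for PC9-AMG against PC9-BrM4 (adjusted p = 0.0596). TJP1, ZO-1, averaged 53.2 TPM over the libraries, with an interval of -0.25 to 0.38 for PC9-BrM4 against PC9 and of -0.49 to 0.14 for PC9-AMG against PC9. F11R, the adhesion molecule JAM-A, averaged 149 TPM, and its interval for PC9-BrM4 against PC9 was the narrowest of this family, at -0.19 to 0.24. MARVELD2, tricellulin of the corners where cells meet, read 15.9 and 8.34 TPM in the PC9-BrM4 libraries, the widest gap of any member there at 0.86.

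CXADR, the coxsackievirus and adenovirus receptor, read 15.8 and 22.2 TPM in PC9-AMG, 29.2 and 24.7 TPM in PC9-BrM4 and 20.3 and 21.1 TPM in PC9. Its difference between PC9-BrM4 and PC9 was 0.36 (95% interval -0.02 to 0.74), and the 41 genes around it on chromosome 21 had a median of 0.32. TJP3 and MARVELD3 had intervals of -0.51 to 0.05 and of -0.08 to 0.46 in PC9-BrM4 against PC9. Of 32 other tight junction genes 27 were tested, with 3 higher and 1 lower in PC9-BrM4 against PC9, or 14.8%, where 16.3% of all genes were called. PARD6A, a polarity protein, read 8.45 and 9.10 TPM in PC9-AMG, 10.8 and 13.1 TPM in PC9-BrM4 and 4.85 and 4.72 TPM in PC9, a rise of 1.16 ± 0.16 in PC9-BrM4 (adjusted p = 0.00137) and of 0.76 ± 0.16 in PC9-AMG (adjusted p = 0.0262). The PC9-AMG call was lost whichever of the 4 libraries compared was left out (adjusted p up to 0.183). YBX3, the ZO-1 partner ZONAB, was lower in PC9-BrM4 than in PC9 (difference -0.43, adjusted p = 0.00342), a call lost without PC9 library 1 or 2 (adjusted p up to 0.0635). AMOTL1 was higher in PC9-BrM4 than in PC9 by 0.71 (adjusted p = 0.00998), where PC9-BrM4 read 62.3 and 46.2 TPM; this was lost without PC9-BrM4 library 1, PC9 library 1 or PC9 library 2 (adjusted p up to 0.0627). In PC9-AMG, 1 of the 27 was higher and 1 lower than in PC9 (7.41%, and 7.49% of all genes), and 1 higher and 2 lower than in PC9-BrM4 (11.1%, and 18.6% of all genes).

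GJB2, connexin 26, was the only connexin in the set and was lower in PC9-AMG than in both other lines. It read 4.83 and 5.89 TPM in PC9-AMG, 10.4 and 10.1 TPM in PC9-BrM4 and 10.8 and 8.70 TPM in PC9. PC9-AMG lay wholly below both other lines, which overlapped. The differences were -0.76 ± 0.17 against PC9 (adjusted p = 0.0319) and -0.83 ± 0.17 against PC9-BrM4 (adjusted p = 0.00986; -0.66 with median centring, adjusted p = 0.0251). The call against PC9 was lost without PC9-AMG library 1 (adjusted p = 0.122), PC9-AMG library 2 (0.0855), PC9 library 1 (0.288) or PC9 library 2 (0.108), and the call against PC9-BrM4 without PC9-AMG library 1 (0.0632) or PC9-BrM4 library 1 (0.0667). For PC9-BrM4 against PC9 the interval was -0.31 to 0.46.

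Most connexin RNA in these cells came from other genes. Of 20 connexin genes 8 were listed at 0 in every library, and the sum was 262 and 245 TPM in PC9-AMG, 301 and 294 TPM in PC9-BrM4 and 240 and 246 TPM in PC9. GJB2 made up 1.84% and 2.40% of it in PC9-AMG, 3.47% and 3.45% in PC9-BrM4 and 4.50% and 3.54% in PC9. GJB5, a connexin of skin, and GJC1, connexin 45, were picked after their values were seen and were not called in any comparison. GJB5 read 49.2 and 45.3 TPM in PC9-AMG, 53.9 and 53.8 TPM in PC9-BrM4 and 44.7 and 49.9 TPM in PC9, with an interval of -0.06 to 0.43 for PC9-BrM4 against PC9. GJC1 stayed between 6.86 and 8.14 TPM in all 6 libraries.

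GJA5, connexin 40 of heart and vessels, read 2.99 and 4.47 TPM in PC9-AMG, 20.0 and 17.7 TPM in PC9-BrM4 and 1.12 and 1.45 TPM in PC9. The lines stood apart in all 3 comparisons, with PC9-BrM4 over PC9 by 3.12 ± 0.21 (adjusted p = 1.25e-05), PC9-AMG over PC9 by 1.04 ± 0.21 (adjusted p = 0.0199) and PC9-AMG below PC9-BrM4 (difference -2.08 ± 0.21, adjusted p = 0.000217). For PC9-AMG against PC9, the call was lost without PC9-AMG library 2, PC9 library 1 or PC9 library 2 (adjusted p up to 0.138). The pannexin PANX1, a channel protein of the plasma membrane, read 16.9 and 19.1 TPM in PC9-AMG, 28.2 and 23.3 TPM in PC9-BrM4 and 14.5 and 14.5 TPM in PC9. It was higher in PC9-BrM4 than in PC9 by 0.78 ± 0.14 (adjusted p = 0.00570), a call that held without each library in turn. PC9-AMG was lower than PC9-BrM4 (difference -0.49, adjusted p = 0.0403), which was lost with median centring (-0.31, adjusted p = 0.117) and whichever library was left out, other than PC9-BrM4 library 2 (adjusted p up to 0.175). Of the 21 connexin and pannexin genes outside the set, 8 were tested. In PC9-BrM4 against PC9 4 were higher, in PC9-AMG against PC9 2 were higher, and in PC9-AMG against PC9-BrM4 3 were lower, where 16.3%, 7.49% and 18.6% of all genes were called.

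**Figure D4:**
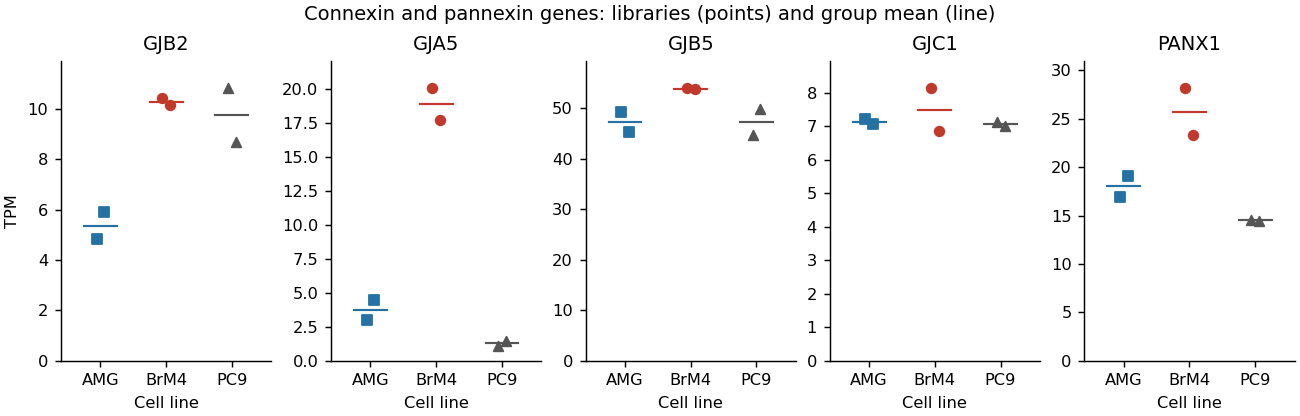
TPM of GJB2, GJA5, GJB5, GJC1 and the pannexin PANX1 in each library (points) of PC9-AMG, PC9-BrM4 and PC9 with the mean of each line (bars), each panel from 0 on its own scale. GJA5 and PANX1 are highest in the 2 PC9-BrM4 libraries, and GJB2 is lowest in the 2 PC9-AMG libraries.

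EPCAM, CTNNB1, CTNND1 and CDH3 were lower in PC9-AMG than in PC9-BrM4, and CTNNA1 was not called. EPCAM read 634 and 741 TPM in PC9-AMG, 846 and 856 TPM in PC9-BrM4 and 705 and 698 TPM in PC9. PC9-BrM4 lay above both other lines, and PC9-AMG was lower than it (difference -0.31 ± 0.09, adjusted p = 0.0332). This was lost with median centring (-0.14, adjusted p = 0.491) and whichever library was left out, other than PC9-AMG library 2 (adjusted p between 0.0778 and 0.126). The difference of PC9-BrM4 from PC9 was 0.28 (95% interval 0.09 to 0.47, adjusted p = 0.0535), with an adjusted p of 0.0230 without either PC9-AMG library, 0.296 without PC9 library 2, and 0.405 with median centring (difference 0.17).

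CTNNB1, beta-catenin, which links cadherins to alpha-catenin and also carries Wnt signals, read 148 and 166 TPM in PC9-AMG, 250 and 214 TPM in PC9-BrM4 and 184 and 174 TPM in PC9. No lines overlapped. PC9-BrM4 was higher than PC9 by 0.37 ± 0.10 (adjusted p = 0.0392), which was lost with median centring (0.27, adjusted p = 0.144) and without PC9-BrM4 library 1 (0.184), PC9 library 1 (0.158) or PC9 library 2 (0.263). PC9-AMG was lower than PC9-BrM4 (difference -0.56 ± 0.10, adjusted p = 0.00621; -0.39 with median centring, adjusted p = 0.0428), which was lost without PC9-BrM4 library 1 (adjusted p = 0.0631).

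CTNND1, p120-catenin, which keeps cadherins at the surface, read 174 and 163 TPM in PC9-AMG, 251 and 194 TPM in PC9-BrM4 and 248 and 237 TPM in PC9. PC9-AMG lay below both other lines, with differences of -0.53 ± 0.12 against PC9 (adjusted p = 0.0312) and -0.39 ± 0.12 against PC9-BrM4 (adjusted p = 0.0475). The call against PC9-BrM4 was lost with median centring (-0.22, adjusted p = 0.201) and with the length trend removed (-0.16, adjusted p = 0.163). The call against PC9 was lost whichever of the 4 libraries compared was left out (adjusted p between 0.0922 and 0.193), and that against PC9-BrM4 whichever library was left out, other than PC9-BrM4 library 2 (adjusted p between 0.0777 and 0.226). CTNNA1, alpha-catenin, which links the complex to actin, stayed between 35.7 and 40.8 TPM in all 6 libraries and was not called, with intervals of -0.26 to 0.24 for PC9-BrM4 against PC9 and of -0.35 to 0.16 for PC9-AMG against PC9.

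CDH3, P-cadherin, read 81.4 and 71.1 TPM in PC9-AMG, 115 and 105 TPM in PC9-BrM4 and 94.2 and 95.6 TPM in PC9. The lines did not overlap, and PC9-AMG was lower than PC9-BrM4 (difference -0.53 ± 0.11, adjusted p = 0.00852; -0.35 with median centring, adjusted p = 0.0407), a call lost without PC9-BrM4 library 1 (adjusted p = 0.0730). The 50 genes around CDH3 on chromosome 16 had a median of -0.37 in the same comparison. CDH1, E-cadherin, which lies beside it, read 84.5 and 75.6 TPM in PC9-AMG, 159 and 124 TPM in PC9-BrM4 and 107 and 109 TPM in PC9, and was lower in PC9-AMG than in PC9-BrM4 (difference -0.80 ± 0.13, adjusted p = 0.00246). NECTIN3, an adherens junction receptor that the files list under its older symbol PVRL3, read 6.10 and 6.40 TPM in PC9-AMG, 3.21 and 2.27 TPM in PC9-BrM4 and 12.1 and 11.01 TPM in PC9. It was lower in PC9-BrM4 than in PC9 (difference -1.76 ± 0.18, adjusted p = 0.000226) and in PC9-AMG than in PC9 (difference -0.79 ± 0.18, adjusted p = 0.0340), and higher in PC9-AMG than in PC9-BrM4 by 0.97 (adjusted p = 0.00650). The PC9-AMG difference from PC9 was lost whichever of the 4 libraries compared was left out (adjusted p up to 0.247), and that from PC9-BrM4 without PC9-AMG library 2 (adjusted p = 0.0536).

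In PC9-BrM4 the gap between the libraries moved with transcript length. Over the 29 members the gap between library 1 and library 2 of PC9-BrM4 rose with the length of the longest transcript (Spearman's rho 0.792, a description over genes of the same 2 libraries), against 0.0306 in PC9-AMG and -0.00641 in PC9. The longest members, DSC2, DSP and TJP1, read higher in PC9-BrM4 library 1, by 0.42, 0.68 and 0.43 on the log2 scale, and CLDN3, the shortest, read lower there, at -0.23. Members are long, with a median of 4835 bases against 3351 over all genes. Across all genes the differences of PC9-AMG from PC9 and from PC9-BrM4 fell with length (rho -0.233 and -0.239), and that of PC9-BrM4 from PC9 had a rho of 0.0392. With the trend in length removed, 8 members were higher and 2 lower in PC9-BrM4 against PC9, 3 were higher and 2 lower in PC9-AMG against PC9, and 2 were higher and 7 lower in PC9-AMG against PC9-BrM4. Over all genes the calls then numbered 2691, 1365 and 2686, in place of 2389, 1096 and 2720.

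**Figure D5:**
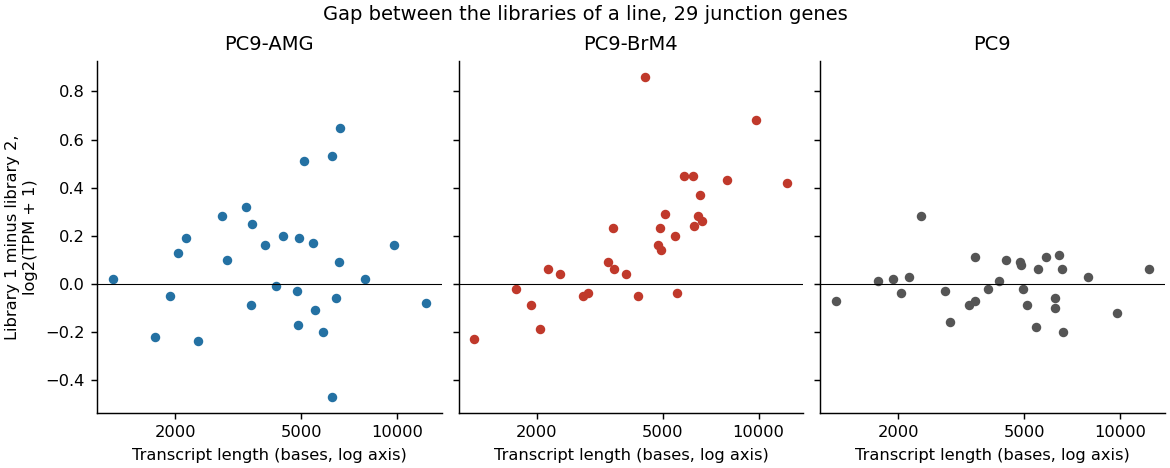
Difference in log2(TPM + 1) between library 1 and library 2 of each line for every tested junction gene, against the length of its longest transcript in bases on a log axis, with 1 panel per line. In PC9-BrM4 the long genes DSP and DSC2 lie above 0 and CLDN3 below, and rho is 0.0306 in PC9-AMG and -0.00641 in PC9.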

How the data were processed

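Per the labels, total RNA of PC9-AMG, PC9-BrM4 and PC9 cells was extracted with TRIzol and made into stranded mRNA libraries (TruSeq), 2 per line. HISAT2 2.1.0, StringTie 1.3.4d and hg38 are credited to the submitters' processing notes. The authors deposited TPM, FPKM and coverage per gene. The TPM values, per the file headers, are per gene and library and were deposited already scaled. FPKM served as an alternative and coverage as a measure of depth. Where a gene had several entries in a library, their TPM and FPKM were summed, and coverage was that of the entry with the highest TPM. Each library had between 1384 and 1422 such genes among 26485. Members were matched by gene name. Differences in log2(TPM + 1) were tested with limma 3.58.1 (R 4.3.3), which fitted line means to the 6 libraries together with a variance trend, two-sided; the pseudocount of 1 understates changes of low genes. The 14627 genes tested reached 1 TPM in 2 or more libraries, and those with a p under 0.05 after Benjamini-Hochberg adjustment over them are the called genes; the fit was tested on simulated data. Transcript lengths came from GENCODE (93.8% of tested genes), promoters from RefSeq. Besides the members, 130 genes in 7 further lists (desmosome, claudin, tight junction, connexin and pannexin, adherens junction, EPCAM partners with the matriptase axis, and junction regulators) were read, of which called genes were named, at most 4 per list and comparison, the largest first. Some genes of these lists count in the totals and are not reported here by name. Members and lists were chosen with earlier results of these data known. Alternatives changed scaling, pseudocount, filter, unit, table, moderation, libraries, replicate block and length trend.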

Additional observations from a re-analysis of the deposited data

How the results depend on the processing

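The number of junction genes called moved by over 1.5 times under some alternatives. For PC9-BrM4 over PC9 it was 9 (2389 of all genes), with 5 under median centring (2210), 4 without a filter (1675), 5 with FPKM (2316) and 4 without the variance trend (1756), and leaving out each library in turn gave 1 to 9 (892 to 2383). For PC9-AMG over PC9 it was 4 (1096 of all genes); limma called 0 without a filter and 0 without the trend (10 and 8 at an unadjusted p under 0.05), where it called 250 and 325 of all genes, and leaving out libraries gave 0 to 4 (131 to 1152). For PC9-AMG over PC9-BrM4 it was 14 (2720 of all genes), with 6 under median centring (2506), 8 without a filter (1799), 8 with FPKM (2624), 7 without the trend (1845), 9 with only the 4 libraries compared (1953) and 9 with the length trend removed (2686), and leaving out libraries gave 3 to 12 (1024 to 2886). For the 7 other lists, 25 genes were called for PC9-BrM4 over PC9, and leaving out libraries gave 13 to 27. For PC9-AMG over PC9 13 were called, with 2 without a filter, 20 with a filter at 5 TPM, 21 with robust moderation and 7 without the trend, and leaving out libraries gave 1 to 13. For PC9-AMG over PC9-BrM4 23 were called, with 14 without the trend, and leaving out libraries gave 10 to 27. Over all genes the calls for PC9-AMG over PC9 also rose, from 1096 to 1531 with a filter at 5 TPM and to 1437 with robust moderation. With that filter 79 genes of the 7 lists were tested, in place of 89. The cause was not tested. Over all members, comparisons and alternatives, 168 calls were lost, 36 were gained and none of the called differences changed sign. A lone library left in a line was taken to have the spread of the other lines. Depth is unknown, so levels near 1 TPM, as for DSG3 and PKP1, carry a counting error that cannot be given.

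With a replicate block, 10, 4 and 14 junction genes were called in the 3 comparisons in the order above, and 27, 16 and 23 genes of the other lists. The calls over all genes were then 2483, 1298 and 2905, in place of 2389, 1096 and 2720. The libraries share only a number: their gaps correlated at between -0.0388 and 0.0292 across 14627 genes.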

Other observations

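Genes that act on junctions from other lists also differed between the lines. Of 19 tested regulators of junction genes, 5 were higher and 3 lower in PC9-BrM4 than in PC9. In PC9-AMG 1 was higher and 4 lower than in PC9, and 1 was higher and 5 lower than in PC9-BrM4. In this order that is 42.1%, 26.3% and 31.6%, where 16.3%, 7.49% and 18.6% of all genes were called. ELF3, an epithelial ETS factor, read 174 and 159 TPM in PC9-AMG, 144 and 149 TPM in PC9-BrM4 and 317 and 314 TPM in PC9, with no overlap between PC9 and the derivatives. It was lower in PC9-AMG (difference -0.92, adjusted p = 0.00108) and in PC9-BrM4 (difference -1.10, adjusted p = 4.26e-05), under every alternative run. TFAP2A, the AP-2 alpha factor, read 27.0 and 22.6 TPM in PC9-AMG, 39.5 and 35.5 TPM in PC9-BrM4 and 22.5 and 22.99 TPM in PC9. Its difference of PC9-BrM4 from PC9 was 0.69 (adjusted p = 0.00694), lost without PC9-BrM4 library 1, PC9 library 1 or PC9 library 2 (adjusted p up to 0.0640). TFAP2C was lower in PC9-AMG than in PC9-BrM4 (difference -0.80, adjusted p = 0.00295).

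Among 9 EPCAM partners and genes of the matriptase axis, 2 were higher and 2 lower in PC9-BrM4 than in PC9. In PC9-AMG 2 were lower than in PC9 and 2 were lower than in PC9-BrM4, not the same pair of genes. CD44, a hyaluronan receptor, read 352 and 345 TPM in PC9-AMG, 574 and 512 TPM in PC9-BrM4 and 344 and 326 TPM in PC9. It was higher in PC9-BrM4 than in PC9 by 0.69 (adjusted p = 0.000599) and lower in PC9-AMG than in PC9-BrM4 (difference -0.64, adjusted p = 0.00106). TMPRSS4, a membrane serine protease, read 17.2 and 17.96 TPM in PC9-AMG, 16.6 and 18.2 TPM in PC9-BrM4 and 34.5 and 33.6 TPM in PC9. Both derivatives lay below PC9, with differences of -0.91 in PC9-AMG (adjusted p = 0.00454, lost without PC9 library 1 or 2) and -0.93 in PC9-BrM4 (adjusted p = 0.001). Of 16 tested adherens junction genes, 1 was higher and 2 lower in PC9-BrM4 than in PC9, 1 higher and 1 lower in PC9-AMG than in PC9, and 1 higher and 6 lower in PC9-AMG than in PC9-BrM4. Over all 7 lists, 28.1%, 14.6% and 25.8% of 89 tested genes were called in PC9-BrM4 against PC9, in PC9-AMG against PC9 and between the derivatives, where 16.3%, 7.49% and 18.6% of all genes were.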
